A study of Bos taurus with 28 samples.

Results

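The extracellular matrix (ECM) of adipose tissue (AT) is a mesh of collagens, laminins, fibrillins and matricellular proteins that holds fat cells and vessels in place. Metalloproteases cleave and mature its proteins, serpins restrain other proteases, and integrins, cadherins and claudins fix cells to the mesh or to each other. The mesh also stores growth factors of the TGF-beta, BMP, FGF, Wnt, IGF and PDGF families, which act on fat cell precursors, fibroblasts and vessel walls. In dairy cows, subcutaneous fat is drawn down after calving, when milk synthesis starts before feed intake can cover its energy cost.

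The genes described here encode ECM proteins, proteases and their inhibitors, adhesion molecules, and growth factors with their receptors. They were chosen by symbol, from the prefixes COL, LAM, ADAM, MMP, TIMP, LOX, FBLN, FBN, THBS, SERPIN, ITG, CDH, PCDH, CLDN, CTS, FGF, WNT, BMP, TGFB, IGF, PDGF, VEGF and ANGPT, with a floor on reads, and ADAMTS1 was left out by the rule although its symbol matches a prefix. Symbols came from the table of the study that pairs 1863 gene identifiers with a usable symbol, so many relatives of these genes carry no symbol and were not analysed here. Of 43 candidate genes, 40 had at least 3 reads in at least 1 library, out of 18905 genes that passed this floor and 24616 listed. The other 3 were all secreted ligands: BMP10 and IGFL1 had 0 reads, and FGF8 had at most 2 reads in any library. For scale, 3 reads corresponded to between 0.127 and 0.200 CPM (reads scaled to a library of common size) across libraries.

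The samples were RNA-seq libraries of subcutaneous AT, taken by surgical biopsy of the right flank from healthy multiparous Holstein cows. The groups were PreP, at day -11 relative to calving (n = 9), PP1, at day 6 (n = 10), and PP2, at day 13 (n = 9), with no treatment groups. These days are means, for which the study gives a spread, and it counts PreP from the expected calving date. All cows ate a close-up diet until calving and a different diet for fresh cows afterwards, so calving, lactation and the change of diet cannot be told apart in PP1 and PP2. The 28 libraries came from 11 cows, of which 8 gave all 3 time points, and each library held between 15293154 and 22284884 counted reads (median 19088705). The 9 PreP libraries served as reference for PP1 and for PP2, and the 2 contrasts are given side by side for that reason.

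The design text of the series names mammary glands, whereas each sample is labelled AT. Of 9 markers of epithelium and mammary gland, the milk protein gene CSN2 stayed under 3 reads in all libraries. The other 8 summed to between 76.9 and 320.4 CPM at PreP, 116 and 324 CPM at PP1 and 47.1 and 446 CPM at PP2, of which the plakin gene PPL made up most (mean 234 CPM at PreP). The 7 adipocyte markers summed to between 194 and 3523 CPM. Libraries of some cows stood apart. In the PP2 library of cow B5090, 8 skeletal muscle markers summed to 9667 CPM, against a PP2 median of 15.3 CPM. Over 1257 genes called between PP2 and PreP in the other cows, the PP2 library of B5079 lay nearer the PP2 mean for 34.0%. The other PP2 libraries, each judged without its own cow, gave between 42.3% and 82.7%. Cow B5169 differed from the other cows at 2 time points. Over 1748 genes called between PP1 and PreP in the other cows, its PP1 library lay nearer the PP1 mean than the PreP mean for 8.01% of genes, where the other PP1 libraries, each judged without its own cow, gave between 46.1% and 96.4%. Its PreP library lay nearer the PP1 mean for 49.0% of these genes, where the other PreP libraries gave between 7.77% and 23.0%. Both libraries were kept under their labels, and whether the labels of this cow were exchanged was not tested, so its PreP and PP1 values below are those of the libraries so labelled. Results that rest on this cow are therefore given with and without it. The cow was singled out on the same libraries and contrast, so leaving it out sharpens that contrast, and fits without it are no independent support.

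The first question was which of these genes differed in AT after calving. A gene was called when its false discovery rate (FDR, the p-value adjusted over all genes tested) was under 0.05 and its log2 fold change lay beyond 1 in either direction. At PP1, 2 of 40 genes were called, both higher than at PreP: BMP1 and THBS3. At PP2, 3 of 40 were called, all higher: BMP1, THBS3 and ANGPTL4. These were 5.0% of the genes at PP1 and 7.50% at PP2. Over all genes the corresponding shares were 4.03% and 5.47%, and 3.34% and 3.52% for calls in the upward direction, so the number of calls was close to the background and is no property of the gene class.

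The fold changes of the class are described here by their medians and counts, which were not tested, and both contrasts share the PreP libraries. The median log2 fold change was 0.42 at PP1, beside 0.04 over all genes tested, and 0.39 at PP2, beside 0.10. At PP1, 25 of 40 genes (62.5%) lay above 0, beside 53.4% of all genes, and at PP2 30 of 40 (75.0%) did, beside 58.9%. Without adjustment, p lay under 0.05 for 13 genes at PP1 (32.5%, background 24.6%) and for 8 at PP2 (20%, background 21.4%). Among the 13 were WNT7A, SERPINB5 and CDHR1, and WNT7A was among the 8, which reached the floor of 3 reads only in the time point with the higher level, so that their direction was fixed by the floor and supports nothing. WNT7A had no read at PreP. Setting it at its lower bound left the medians at 0.42 and 0.39, which was fixed in advance, since each bound lay above its median.

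**Figure D1:**
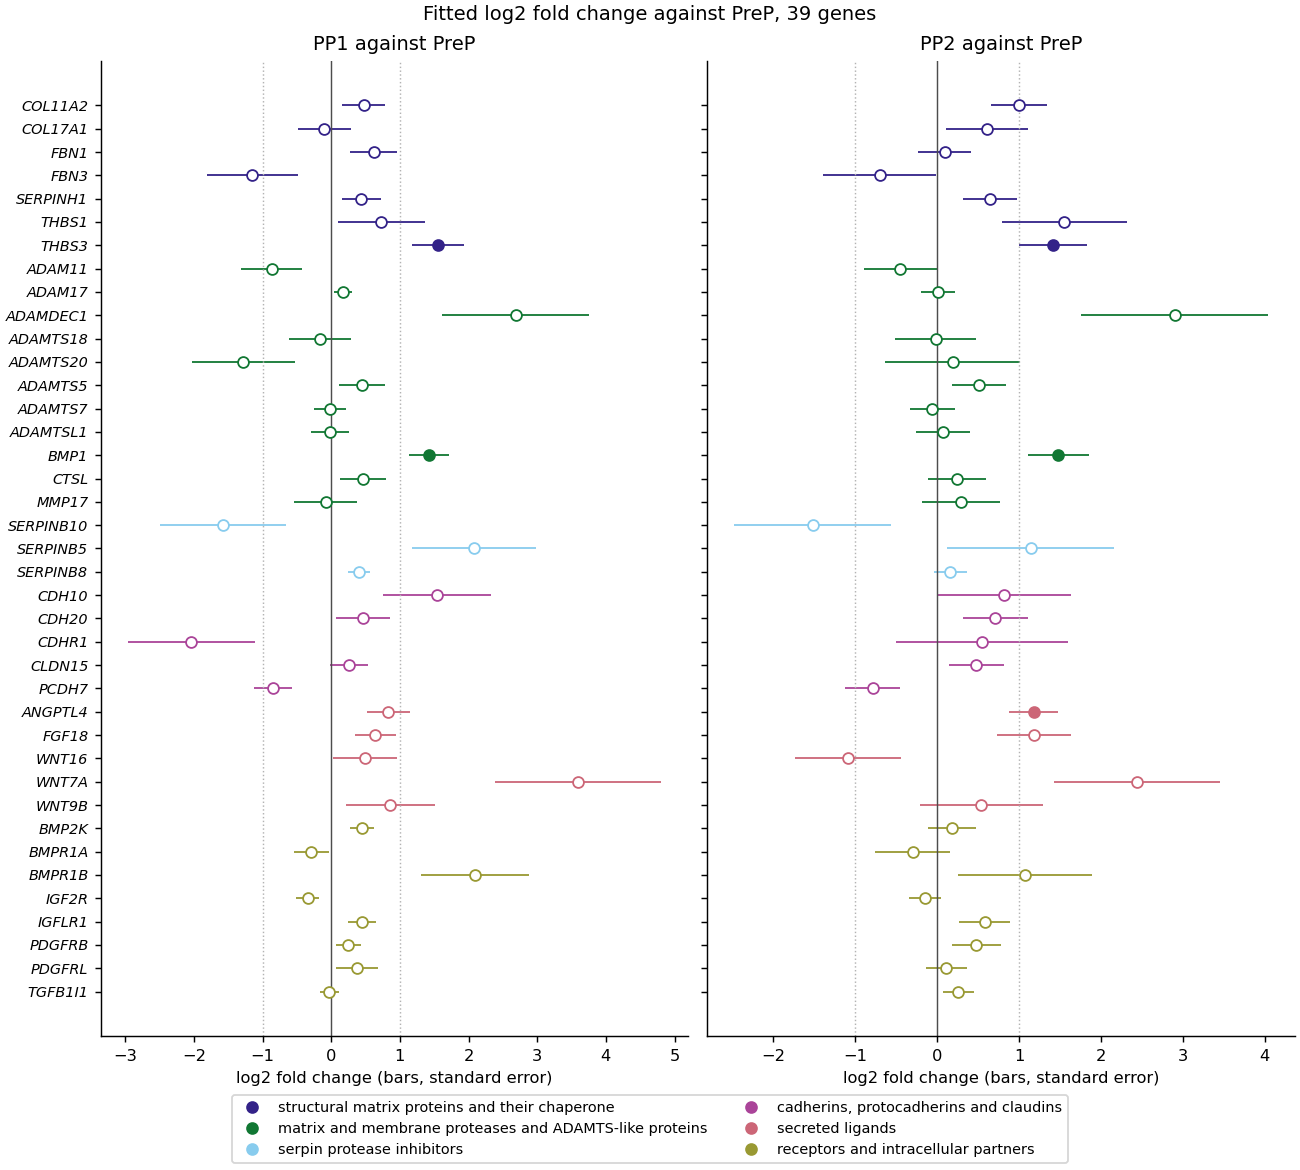
Fitted log2 fold changes of 39 of the genes at PP1 (left) and PP2 (right) against PreP, grouped by role, with bars for the standard error, dotted lines at log2 fold changes of -1 and 1, and filled points for called genes. The 2 filled points at PP1 and the 3 at PP2 all lie to the right, and the wide bars belong mostly to genes with few reads, such as WNT7A with 14 reads in all of PP1.

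BMP1 (ENSBTAG00000000917) encodes the procollagen C-proteinase, a metalloprotease that trims the C-terminal propeptide from fibrillar collagens so that fibres can form, and despite its name it is not a member of the BMP ligand family. At PreP its level was 105 ± 20.4 CPM (SD, n = 9), with a lowest, median and highest library of 58.6, 104 and 128 CPM. At PP1 it was 282 ± 153 CPM (n = 10), from 88.8 through a median of 320.0 to 532 CPM. At PP2 it was 294 ± 207 CPM (n = 9), from 62.0 through 275 to 636 CPM. The PreP libraries were thus close together, while the later libraries spread widely, 7 of 10 at PP1 and 6 of 9 at PP2 lying above the highest PreP library and the rest inside the PreP range.

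The log2 fold change of BMP1 was 1.42 ± 0.294 (SE) at PP1, with an FDR of 0.00830, and 7 of 8 cows with both samples were higher. At PP2 it was 1.48 ± 0.376, with an FDR of 0.0238, and 6 of 8 cows were higher. The exact two-sided permutation test on log2 CPM gave an unadjusted p of 0.00337 at PP1 and 0.0239 at PP2. With cow as a block, fitted only in the 8 cows with both samples, the FDR was 0.0936 at PP1 and 0.0843 at PP2. Both calls were lost, with fold changes of 1.25 and 1.37. Under limma voom the fold change at PP2 was 0.81 and that call was lost. The call at PP1 held in all 11 fits that left out 1 cow, and that at PP2 held in 5 of 10, being lost without B4886 (FDR 0.0763), B4987 (0.0684), B5064 (0.0529), B5129 (0.0617) or B5165 (0.0687).

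THBS3 (ENSBTAG00000000057) encodes thrombospondin 3, a pentameric matricellular glycoprotein. Its levels at PreP were 46.9 ± 11.8 CPM (SD, n = 9), with a lowest, median and highest library of 25.7, 46.8 and 62.9 CPM. At PP1 they were 137 ± 114 CPM (n = 10), from 33.0 through 134 to 417 CPM, the highest being cow B5102. At PP2 they were 125 ± 102 CPM (n = 9), from 21.4 through 102 to 327 CPM, the highest being cow B4886. As for BMP1, most of the later libraries lay above the PreP range, 6 of 10 at PP1 and 5 of 9 at PP2, and 1 PP2 library lay below it.

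The log2 fold change of THBS3 was 1.55 ± 0.380 (SE) at PP1, with an FDR of 0.0194, and 1.42 ± 0.415 at PP2, with an FDR of 0.0449. The exact permutation p was 0.0107 at PP1 and 0.0657 at PP2, and 7 of 8 cows and then 6 of 8 cows were higher. With cow as a block the fold changes were 1.13 and 1.18 and the FDR was 0.150 and 0.127. The call at PP1 was also lost in the fit of 3 time points together (1.55), and that at PP2 in the same fit (1.42), under scaling by total counts (1.28) and under limma voom (0.51). At PP1 the call was lost without B5090 (FDR 0.0548), B5102 (0.0664) or B5129 (0.0581). At PP2 it held in 3 of 10 fits only, those without B5079, B5090 or B5169, and the FDR reached 0.123 without B4886.

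BMP1 and THBS3 were high in the same libraries. At PP2 the order of the 9 libraries was identical for both genes (Spearman's rho 1.0, Pearson's r of log2 CPM 0.995), with cows B4886, B4987, B5165 and B5064 at the top and B5090, B5169 and B5079 at the bottom. At PP1, r was 0.964 and rho 0.927 (n = 10). Without the 2 libraries farthest from the median of BMP1, r was 0.953 at PP1 and 0.990 at PP2. At PreP, where BMP1 varied little, r was 0.694 and rho 0.350, and r fell to 0.150 without the 2 farthest libraries, so that relation rested on them. Over 12 relations of BMP1 tested within time points, the exact permutation p of r for THBS3 was 3.25e-05 at PP1 (adjusted 1.95e-04), 2.76e-06 at PP2 (adjusted 3.31e-05) and 0.0601 at PreP (adjusted 0.0801). For rho the exact p was 3.35e-04 at PP1 (adjusted 0.00201), 0.359 at PreP (adjusted 0.420) and 5.51e-06 at PP2 (adjusted 6.61e-05), the smallest that 362880 orders can give for a two-sided test. These relations were chosen after the values were seen.

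SERPINH1, the collagen chaperone also known as HSP47, followed BMP1 in the later libraries. Pearson's r with BMP1 was 0.899 at PP2 (rho 0.917, exact permutation p of r 0.00194, adjusted 0.00775, p of rho 0.00131, adjusted 0.00525) and 0.682 at PP1 (rho 0.745, exact p of r 0.0342, adjusted 0.0586, p of rho 0.0174, adjusted 0.0261). At PreP r was 0.461 and rho 0.783 (exact p of r 0.142, adjusted 0.155, p of rho 0.0172, adjusted 0.0261). Without the 2 farthest libraries, r was 0.874 at PP2, 0.894 at PP1 and 0.631 at PreP. All of these levels come from the same libraries and share their scaling factor.

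Some, but not all, cell type markers also differed after calving. The summed level of 6 fibroblast markers (LUM, PDPN, PI16, MFAP5, TNXB and IGSF10) ranged from 920.0 to 2496 CPM at PreP, from 1156 to 4892 CPM at PP1 and from 1089 to 4591 CPM at PP2. LUM, PDPN and PI16 were called higher at both times, with log2 fold changes of 2.33, 1.59 and 1.86 at PP1 and 2.18, 1.47 and 2.11 at PP2. TNXB (mean 1125 CPM at PreP) was at -0.08 and -0.30, MFAP5 at 0.48 and -0.21, and IGSF10 at 2.09 and 0.78, and none of these was called. The PP1 median of IGSF10 was 4.15 CPM, with a highest library of 78.1 CPM, beside a PreP median of 3.53 CPM, and its fold change with the block was 1.25. With cow as a block, the FDR of LUM was 0.0282 at PP1 and 0.137 at PP2, that of PDPN 0.181 and 0.252, and that of PI16 0.107 and 0.190, so 5 of the 6 calls were lost. The calls of PDPN held in 7 of 11 and 5 of 10 fits without 1 cow, and those of PI16 in 10 of 11 and 6 of 10. The sum of 7 adipocyte markers ranged from 1091 to 3523 CPM at PreP, from 197 to 2452 CPM at PP1 and from 194 to 1967 CPM at PP2. PCK1 (-2.96) and FFAR4 (-2.48) were called lower at PP2, PCK1 in 10 of 10 fits without 1 cow and FFAR4 in 2 of 10. With cow as a block their FDR at PP2 was 0.0252 and 0.00914. None of the 7 was called at PP1 by edgeR, where 2 were lower at an unadjusted p under 0.05.

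The sum of 5 macrophage markers (CD68, MSR1, CX3CR1, GPNMB and LGALS3) ranged from 257 to 555 CPM at PreP, from 316 to 1448 CPM at PP1 and from 134 to 647 CPM at PP2. CD68 (2.12, FDR 0.00314), MSR1 (1.90, FDR 0.00249) and GPNMB (1.49, FDR 0.00896) were called higher at PP1, in all 11 fits without 1 cow, and with cow as a block their FDR lay between 0.0657 and 0.0936. At PP2, CD68 was the single one called (1.48, FDR 0.0206, with the block 0.0426), in 7 of 10 fits without 1 cow.

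Within PP1, BMP1 correlated with the fibroblast sum at r = 0.769 (rho 0.830, exact permutation p of r 0.0112, adjusted 0.0269, p of rho 0.00471, adjusted 0.0113) and with the adipocyte sum at r = -0.819 (rho -0.830, exact p of r 0.00531, adjusted 0.0159, p of rho 0.00471, adjusted 0.0113), both on log2 values. Within PP2 the corresponding r was 0.626 (rho 0.567, exact p of r 0.0701, adjusted 0.0841, p of rho 0.121, adjusted 0.161) and -0.720 (rho -0.833, exact p of r 0.0324, adjusted 0.0586, p of rho 0.00827, adjusted 0.0165). Within PreP it was 0.649 (rho 0.233, exact p of r 0.0520, adjusted 0.0779, p of rho 0.552, adjusted 0.552) and 0.173 (rho 0.333, exact p of r 0.716, adjusted 0.716, p of rho 0.385, adjusted 0.420). Without the 2 farthest libraries these r values were 0.648 and -0.737 at PP1, 0.773 and -0.468 at PP2, and -0.222 and 0.157 at PreP. Since RBP4 made up most of the adipocyte sum, the relation of BMP1 to this sum is largely one to RBP4, and single markers were not tested. In bulk tissue, more cells of a type and more RNA per cell cannot be told apart, and the part of cell composition in the BMP1 and THBS3 results was not tested.

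**Figure D2:**
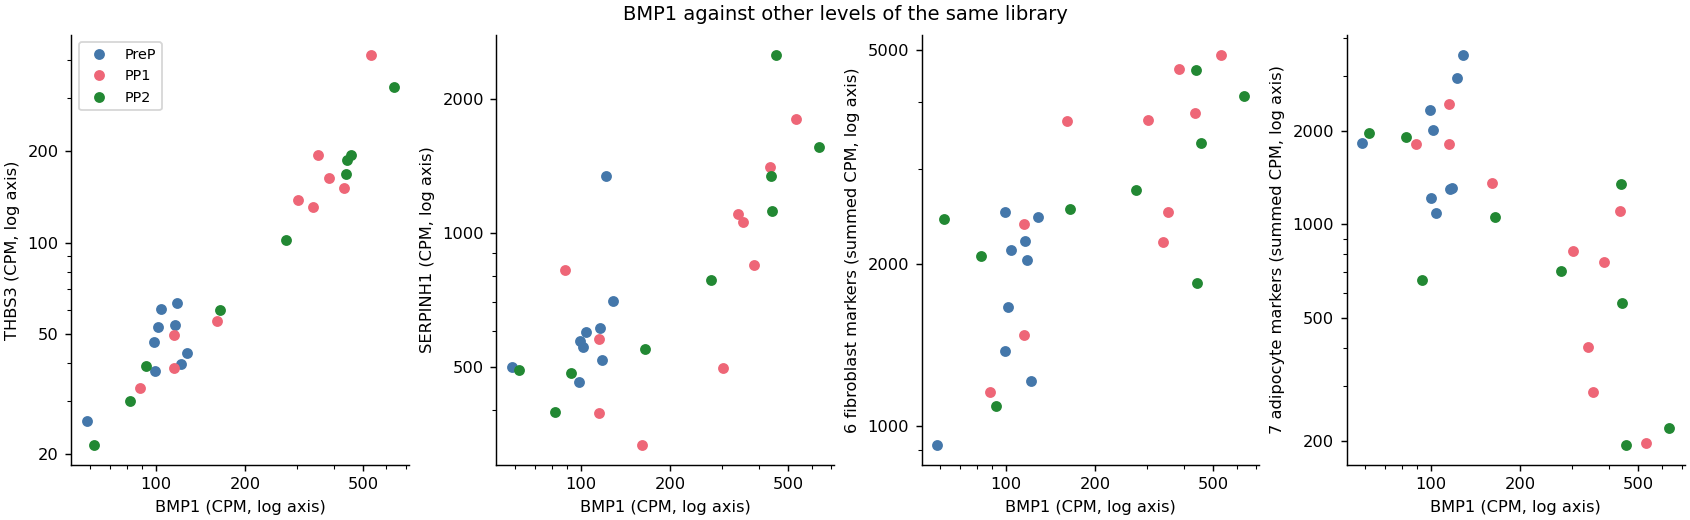
Level of BMP1 (horizontal axis, CPM on a log axis) against THBS3, SERPINH1, the summed fibroblast markers and the summed adipocyte markers (vertical axes, CPM on log axes), with 1 point per library coloured by time point. PP1 and PP2 points run along 1 line for THBS3 (r of 0.964 and 0.995), while PreP points stay between 58.6 and 128 CPM of BMP1.

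ANGPTL4 (ENSBTAG00000002473) encodes a secreted inhibitor of lipoprotein lipase that fat cells make in fasting. At PreP its level was 126 ± 83.9 CPM (SD, n = 9), with a lowest, median and highest library of 53.4, 88.6 and 319 CPM. At PP1 it was 224 ± 97.0 CPM (n = 10), from 109 through 221 to 429.6 CPM. At PP2 it was 287 ± 93.5 CPM (n = 9), from 196 through 264 to 514 CPM. PreP and PP2 overlapped through 1 PreP library, that of cow B5169 at 319 CPM, and the other 8 PreP libraries, at 175 CPM or less, lay below all PP2 libraries.

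At PP2 the log2 fold change of ANGPTL4 was 1.18 ± 0.299 (SE), with an FDR of 0.0237, an exact permutation p of 8.23e-04 and a higher level in 7 of 8 cows. This was the single call of the class that held with cow as a block (log2 fold change 1.47, FDR 0.0289). It was lost without B4886 (FDR 0.0512), B4987 (0.0549), B5064 (0.0684), B5102 (0.0657) or B5129 (0.0541), with fold changes from 1.0 to 1.21. At PP1 the log2 fold change was 0.83 ± 0.313, with an FDR of 0.107 and an exact permutation p of 0.0119. Without cow B5169 it was 1.22 at PP1 (FDR 0.00277) and 1.49 at PP2 (FDR 0.00311). In 6 of 8 cows with 3 samples ANGPTL4 was higher at each later time, and the difference between PP2 and PP1 was 0.33 ± 0.241 with an FDR of 0.970.

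THBS1, the gene of thrombospondin 1, which binds collagen, CD36 and latent TGF-beta, varied widely between libraries. At PreP it was 188 ± 371 CPM (SD, n = 9), with a lowest, median and highest library of 22.7, 63.9 and 1176 CPM. At PP1 it was 312 ± 166 CPM (n = 10), from 33.2 through 282 to 547 CPM. At PP2 it was 545 ± 611 CPM (n = 9), from 46.2 through 242 to 1904 CPM. Cow B5169 held both the highest PreP and the lowest PP1 value. The other 8 PreP libraries stood at 117 CPM or less and the other 9 PP1 libraries at 182 CPM or more. This separation appears only with that cow set aside, and the share of all genes that separate in this way was not counted.

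With all cows the log2 fold change of THBS1 was 0.73 ± 0.630 (SE) at PP1 (FDR 0.503) and 1.55 ± 0.763 at PP2 (FDR 0.244), with exact permutation p of 0.0225 and 0.0245. Without cow B5169, singled out on these same libraries, it was 2.40 at PP1 (FDR 2.40e-05) and 2.86 at PP2 (FDR 0.00718). Without cow B4987 it was 0.91 at PP2 (FDR 0.571), and without cow B4886 it was 0.50 at PP1 (FDR 0.713). At PP1, 7 of 8 cows with both samples were higher than at PreP, and at PP2 6 of 8 were. Cow B4886 had the lowest THBS1 of PP2 and the highest THBS3.

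**Figure D3:**
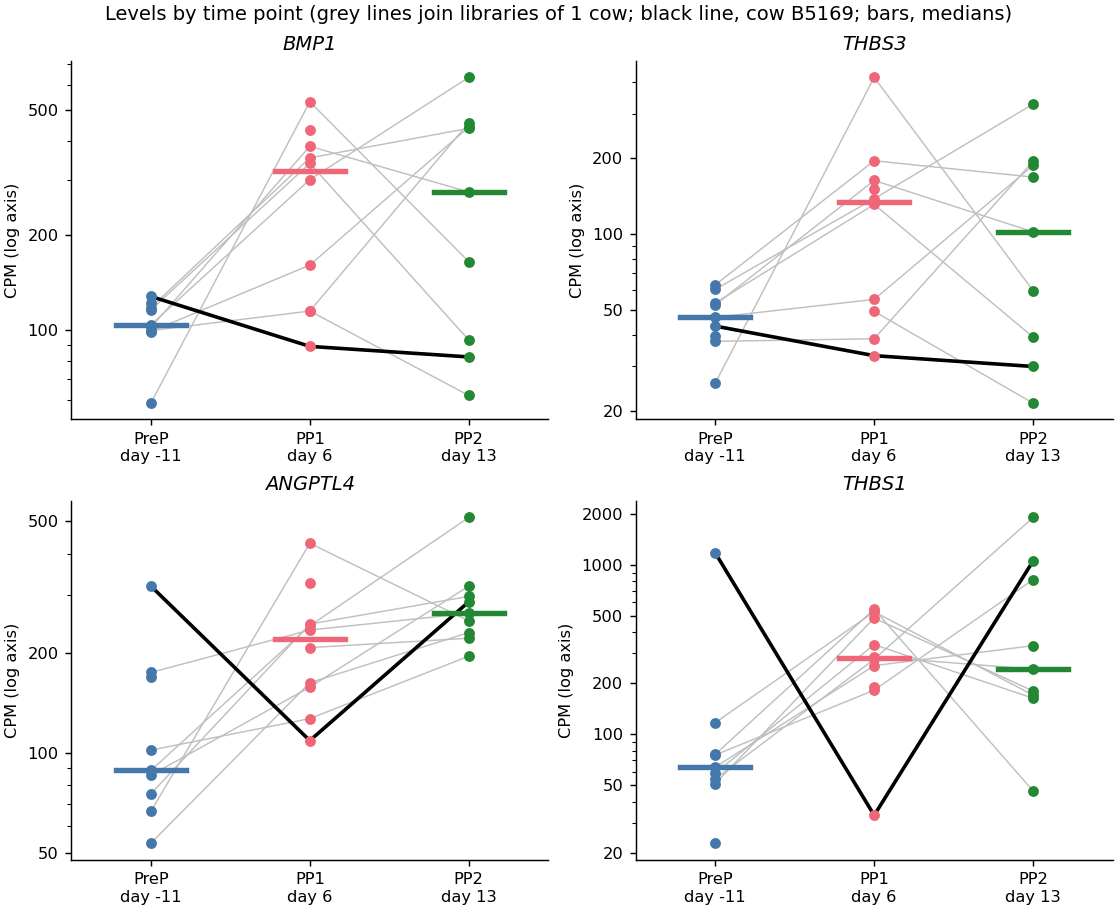
Levels of BMP1, THBS3, ANGPTL4 and THBS1 (vertical axis, CPM on a log axis) at the 3 time points, with 1 point per library, lines joining the libraries of 1 cow (black for B5169) and bars for the medians. The medians rise from 104 to 320.0 CPM for BMP1 between PreP and PP1, and cow B5169 runs against the other cows for THBS1, from 1176 to 33.2 CPM.

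Leaving out cow B5169 raised the number of genes called in this class at PP1 from 2 to 5 (ANGPTL4, BMP1, PCDH7, THBS1 and THBS3) of 40, and over all genes the share rose from 4.03% to 9.50%. At PP2 the number went from 3 to 4 with THBS1, and the share over all genes from 5.47% to 7.22%. ADAMTS5 (0.91, FDR 0.0174) and BMP2K (0.53, FDR 0.0182) had an FDR under 0.05 at PP1 without this cow, from 0.45 (FDR 0.430) and 0.45 (FDR 0.109) with it, but stayed under the threshold on the fold change. Leaving out the PP2 library of cow B5090 left the 3 calls at PP2 in place. Without cow B5079, calls over all genes rose from 744 to 874 at PP1 and from 1015 to 1257 at PP2. Over fits without 1 cow, BMP1 and THBS3 then had their smallest FDR at PP2 (0.00785 and 0.0160).

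Among the 8 structural ECM genes, edgeR's quasi-likelihood test called THBS3 alone, whereas limma voom called THBS1 at both times and DESeq2 called COL11A2 at PP2, and their median log2 fold change was 0.46 at PP1 and 0.63 at PP2. COL11A2, which encodes a chain of the minor fibrillar collagen XI, was at 1.32 ± 0.668 CPM (SD, n = 9) at PreP, with a lowest, median and highest library of 0.717, 1.14 and 2.88 CPM. At PP1 it ranged from 0.598 through 1.82 to 3.92 CPM, and at PP2 from 1.14 through 2.26 to 6.00 CPM. All 9 PP2 libraries were at or above the PreP median, and the highest was that of cow B5090 with its skeletal muscle transcripts. At PP2 the log2 fold change was 1.0 ± 0.345 with an FDR of 0.0858 and an exact permutation p of 0.00703, and 0.71 without cow B5090. Without cow B4987, whose PreP library held the highest PreP value, it was 1.27 with an FDR of 0.0497, and the gene was then called.

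FBN1, the gene of fibrillin 1, the main protein of elastic microfibrils and the precursor of asprosin, had the highest mean count of the class. Its libraries ranged from 465 through 1053 to 2011 CPM at PreP, from 604 through 1533 to 4098 CPM at PP1 and from 497 through 1463 to 2132 CPM at PP2. The ranges overlapped at all times. FBN1 had a log2 fold change of 0.62 ± 0.343 at PP1 (FDR 0.266), where 3 of 8 cows were higher, and 0.09 ± 0.326 at PP2 (FDR 0.922).

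SERPINH1 ranged from 461 through 571 to 1342 CPM at PreP, from 333 through 835 to 1798 CPM at PP1 and from 396 through 783 to 2509 CPM at PP2. Its later libraries lay both above and below those of PreP. SERPINH1 had a log2 fold change of 0.44 ± 0.288 at PP1 (FDR 0.355) and 0.65 ± 0.330 at PP2 (FDR 0.260). Of the other structural genes, COL17A1 and FBN3, which encode an epithelial transmembrane collagen and a fibrillin of fetal tissues, had mean levels of 0.596 and 0.117 CPM, and neither was called.

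Among the 11 proteases and ADAMTS-like genes, BMP1 alone was called by edgeR, and the median log2 fold change was -0.02 at PP1 and 0.19 at PP2. ADAMDEC1, a metalloprotease of macrophages and dendritic cells, was read in 3 of 9 PreP libraries, 6 of 10 PP1 libraries and 7 of 9 PP2 libraries. Its lowest, median and highest values were 0, 0 and 0.402 CPM at PreP, 0, 0.164 and 3.36 CPM at PP1, and 0, 0.168 and 5.27 CPM at PP2. Single libraries carried most of the reads, cow B5064 with 74 of 125 at PP1 and cow B4987 with 99 of 121 at PP2. The fitted log2 fold change of ADAMDEC1 was 2.69 ± 1.07 at PP1 (FDR 0.126) and 2.90 ± 1.14 at PP2 (FDR 0.137), with exact permutation p of 0.128 and 0.115, and 0.72 at PP2 without cow B4987.

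The part of macrophage content, whose markers are given above, in the ADAMDEC1 values was not tested. The sheddase ADAM17, the aggrecanase ADAMTS5 and the COMP-cleaving protease ADAMTS7 had mean levels of 65.1, 32.9 and 56.3 CPM, and none of them was called. The same held for ADAM11, a disintegrin without protease activity, for ADAMTS18, ADAMTS20, ADAMTSL1 and MMP17, and for the lysosomal cathepsin CTSL, with means between 0.477 and 14.9 CPM.

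None of the 3 serpins that inhibit proteases or resemble such inhibitors was called by edgeR, DESeq2 or limma voom. SERPINB8, an inhibitor of furin, ranged from 14.0 through 16.8 to 31.9 CPM at PreP, from 18.8 through 23.4 to 34.5 CPM at PP1 and from 12.3 through 21.1 to 32.4 CPM at PP2. All 10 PP1 libraries lay above the PreP median, though within or close to the PreP range. On the log2 scale SERPINB8 differed by 0.40 ± 0.163 at PP1 (unadjusted p 0.0241, FDR 0.138, exact permutation p 0.0187), with 7 of 8 cows higher.

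SERPINB5, also known as maspin, had 5 reads in 3 PreP libraries, 28 reads in 6 PP1 libraries and 12 reads in 3 PP2 libraries. No PreP library held more than 2 reads of SERPINB5, so it reached the floor of 3 reads only through later libraries, and its levels are given with no test. SERPINB10 had 5 reads at PreP and 1 at each later time, which is too few for a comparison.

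None of the 5 adhesion genes was called by edgeR, DESeq2 or limma voom with all cows. Besides CDHR1, whose direction the floor on reads fixed, PCDH7 alone had an unadjusted p under 0.05, at both times. PCDH7, a protocadherin that joins cells through its cadherin repeats, was at 56.0 ± 26.0 CPM (SD, n = 9) at PreP, with a lowest, median and highest library of 25.2, 40.8 and 99.4 CPM. At PP1 it was at 31.0 ± 15.4 CPM (n = 10), from 15.4 through 28.2 to 69.1 CPM, and at PP2 at 32.5 ± 18.5 CPM (n = 9), from 11.0 through 28.6 to 72.3 CPM. Among the PP1 libraries 9 of 10 lay below the PreP median, the exception being cow B5169.

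The log2 fold change of PCDH7 was -0.85 ± 0.275 at PP1 (FDR 0.0668, exact permutation p 0.0115), with 7 of 8 cows lower. At PP2 it was -0.79 ± 0.332 (FDR 0.165, exact permutation p 0.0281), with 5 of 8 lower. Without cow B5169 it was -1.11 at PP1, with an FDR of 0.00385, and the gene was then called. CDHR1, a cadherin known from photoreceptors, had 7 reads at PreP, 1 at PP1 and 10 at PP2. Its summed levels had a ratio of 0.128 for PP1 over PreP (exact 95% interval 0.00284 to 0.995) and 11.2 for PP2 over PP1 (1.59 to 486), where the intervals cover counting error only and the 10 reads at PP2 came from 3 libraries. No PP1 library reached the floor of 3 reads for CDHR1, so both directions followed from the floor. The cadherins CDH10 and CDH20 and the tight junction protein CLDN15 had mean levels of 0.251, 9.69 and 43.4 CPM, and none was called.

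Among the 5 secreted ligands that passed the floor of 3 reads, edgeR's quasi-likelihood test called ANGPTL4 at PP2 and none at PP1, where ANGPTL4 and FGF18 had an unadjusted p under 0.05, beside WNT7A. At PP1 limma voom called ANGPTL4 and edgeR's likelihood ratio test called WNT7A, which passed the floor only through later libraries. FGF18, a growth factor of cartilage, bone and lung, ranged from 2.05 through 4.28 to 6.07 CPM at PreP, from 1.45 through 6.93 to 11.5 CPM at PP1 and from 2.82 through 4.10 to 32.1 CPM at PP2. At PP1, 7 of 10 libraries lay above the PreP range, while at PP2 cows B4886 (32.1 CPM) and B5129 (21.5 CPM) stood far above a median that was close to that of PreP. FGF18 had a log2 fold change of 0.64 ± 0.301 at PP1 (FDR 0.190) and 1.18 ± 0.451 at PP2 (FDR 0.123), with exact permutation p of 0.169 and 0.165, and 0.63 at PP2 without cow B4886.

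The Wnt ligands were close to the floor. WNT16, a ligand best known in bone, ranged from 0.197 through 0.518 to 1.17 CPM at PreP, from 0.249 through 0.524 to 3.12 CPM at PP1 and from 0 through 0.123 to 0.730 CPM at PP2. At PP2, 6 of 9 libraries lay below all PreP and all PP1 libraries, and 8 of 9 cows were lower at PP2 than at PP1. The log2 fold change of PP2 against PP1 was -1.62 ± 0.687 (FDR 0.774, exact permutation p 0.00862), and that of PP2 against PreP -1.09 ± 0.648 (FDR 0.351, exact permutation p 0.0156).

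WNT7A had 0 reads in all 9 PreP libraries, 14 reads in 4 PP1 libraries and 5 reads in 3 PP2 libraries. Set against a floor of 3 reads over the PreP group, its summed level was at least 4.18-fold higher at PP1 and at least 1.67-fold higher at PP2. Since no PreP library held a read, WNT7A could enter the class only through later libraries, and these bounds are a description of its reads with no test. WNT9B, at a mean of 0.423 CPM, was not called.

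None of the 8 receptors and intracellular partners was called by edgeR's quasi-likelihood test, and p lay under 0.05 without adjustment for 3 at PP1 and 0 at PP2, while DESeq2 called BMPR1B at PP1 (2.11). The median log2 fold changes were 0.31 at PP1 and 0.22 at PP2. BMPR1B, a type I receptor for BMPs and GDF5, ranged from 0 through 0.154 to 0.810 CPM at PreP, from 0.0498 through 0.853 to 3.72 CPM at PP1 and from 0 through 0.244 to 2.60 CPM at PP2. The highest PP1 values came from cows B5102 and B5129, and 5 of 10 PP1 libraries lay above the PreP range. For BMPR1B the log2 fold change at PP1 was 2.09 ± 0.785 (FDR 0.107, exact permutation p 0.0633). Its relative BMPR1A, at a mean of 18.7 CPM, was not called.

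BMP2K, a BMP2-induced kinase related to the clathrin adaptor kinase AAK1, ranged from 5.24 through 8.20 to 9.68 CPM at PreP, from 5.36 through 10.7 to 13.8 CPM at PP1 and from 2.54 through 8.04 to 15 CPM at PP2. At PP1, 8 of 10 libraries lay above the PreP range, and the log2 fold change was 0.45 ± 0.170 (FDR 0.109, exact permutation p 0.0164). IGFLR1, a receptor of the TNF receptor superfamily that binds IGF-like proteins, ranged from 6.10 through 12.5 to 17.0 CPM at PreP, from 8.74 through 17.5 to 24.2 CPM at PP1 and from 6.66 through 15 to 38.3 CPM at PP2. Of its PP1 libraries 5 of 10 lay above the PreP range, and the log2 fold change at PP1 was 0.45 ± 0.209 (FDR 0.192, exact permutation p 0.0638). IGFL1, a ligand of this receptor in other species, had 0 reads.

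PDGFRB, the PDGF receptor of pericytes and fat cell precursors, was one of the most read genes of the class. It ranged from 293 through 452 to 694 CPM at PreP, from 407 through 537 to 763 CPM at PP1 and from 296 through 539 to 1544 CPM at PP2. The ranges overlapped, cow B5064 at PP2 being the highest. PDGFRB had a log2 fold change of 0.25 ± 0.185 at PP1 (FDR 0.424) and 0.48 ± 0.294 at PP2 (FDR 0.362). The sum of 3 other markers of mural cells and smooth muscle had a median of 73.0 CPM before calving, 74.9 CPM in PP1 and 88.8 CPM in PP2.

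IGF2R, the receptor that clears IGF2 and carries lysosomal enzymes, ranged from 111 through 157 to 226 CPM at PreP, from 98.1 through 120.5 to 226 CPM at PP1 and from 81.4 through 151 to 211 CPM at PP2. At PP1, 7 of 8 cows were lower than at PreP, and the log2 fold change was -0.34 ± 0.168 (FDR 0.216, exact permutation p 0.0553). PDGFRL, a secreted relative of the PDGF receptors, ranged from 89.6 through 114 to 158 CPM at PreP, from 60.3 through 115 to 492 CPM at PP1 and from 40.8 through 122 to 219 CPM at PP2. Its medians were nearly equal, and its log2 fold change was 0.37 ± 0.304 at PP1 (FDR 0.480), or -0.09 without cow B5102, and 0.11 ± 0.249 at PP2 (FDR 0.874). The focal adhesion coactivator TGFB1I1, at a mean of 88.2 CPM, was not called.

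**Figure D4:**
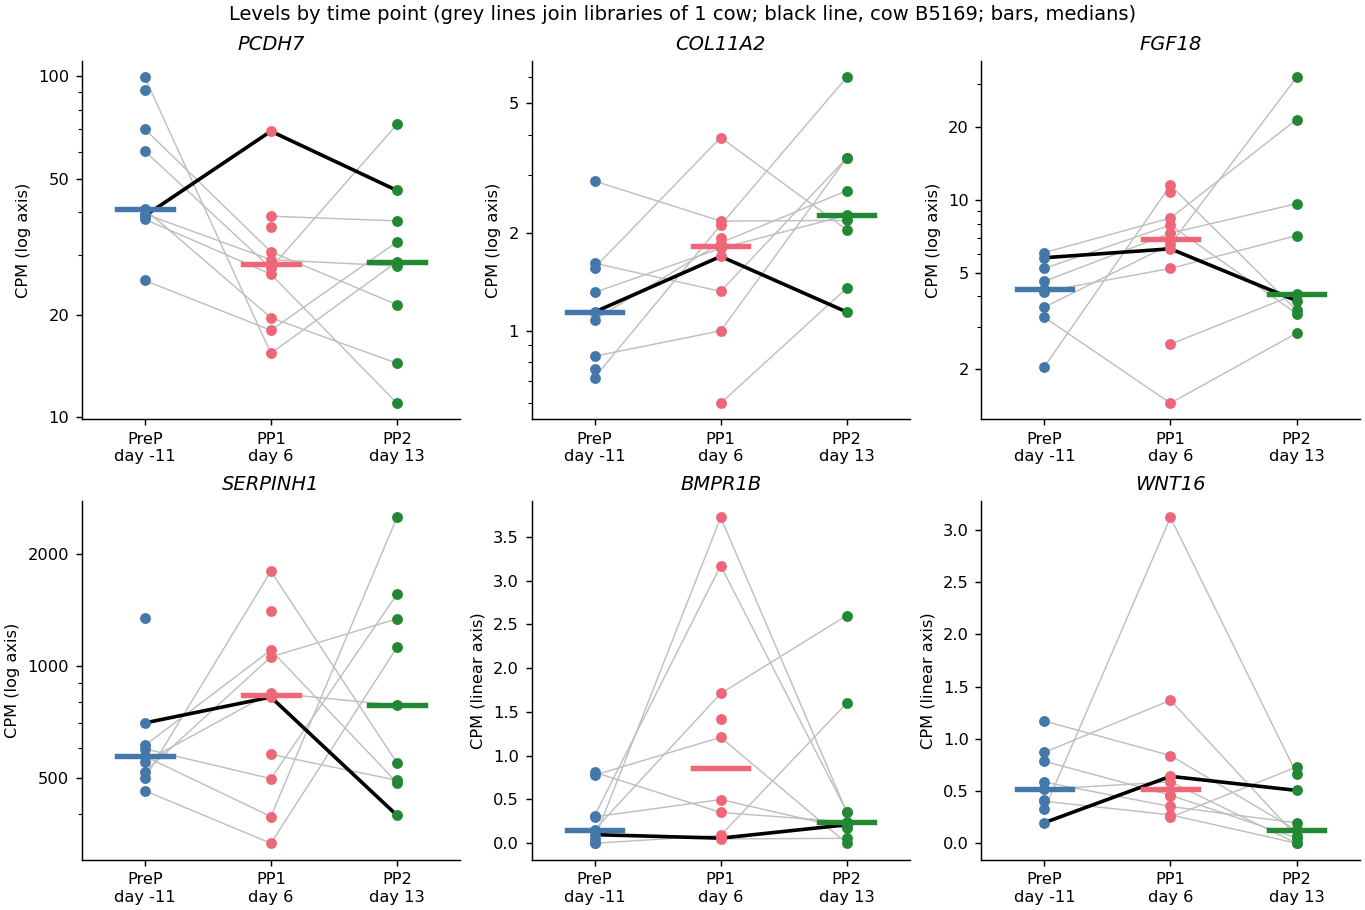
Levels of PCDH7, COL11A2, FGF18 and SERPINH1 (vertical axis, CPM on a log axis) and of BMPR1B and WNT16 (CPM on a linear axis) at the 3 time points, with 1 point per library, lines joining the libraries of 1 cow (black for B5169) and bars for the medians. The PCDH7 median is 40.8 CPM at PreP and 28.2 CPM at PP1, with overlapping ranges, and 2 PP2 libraries of FGF18 stand at 21.5 and 32.1 CPM.

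The second question was whether the class differed between the first and second week after calving. Of 39 genes tested between PP2 and PP1, 0 were called by edgeR's quasi-likelihood test, and 0 of 18518 over all genes (0%). The median log2 fold change was 0.05, beside 0.03 over all genes. Without adjustment, p lay under 0.05 for 2 genes, WNT16 and CDHR1, which is 5.13% beside a background of 5.60%, CDHR1 again through the floor on reads. The likelihood ratio test, DESeq2, limma voom, the fit of 3 time points together and the fit with cow as a block also called 0 of these genes, whereas over all genes they called 160, 0, 0, 176 and 1. BMP1 differed by 0.03 ± 0.422 and THBS3 by -0.17 ± 0.501, standard errors that leave room for changes in either direction.

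Other genes of the same pathways, taken from lists that hold no member of the class, are given by their counts, beside 4.03% of all genes called at PP1 and 5.47% at PP2, and no list was tested as a whole. Of 10 other matrix proteins tested at PP1, 3 were called higher: LUM, a collagen-binding proteoglycan (2.33 ± 0.364, FDR 0.00249), CCN3, a matricellular protein (1.83 ± 0.482, FDR 0.0280), and TNC, the gene of tenascin C (2.38 ± 0.683, FDR 0.0413). At PP2, of 9 tested, LUM (2.18 ± 0.481, FDR 0.0121) and TNC (2.56 ± 0.676, FDR 0.0287) were called. LUM was at 139 ± 58.1 CPM (SD) at PreP (n = 9), 699 ± 492 CPM at PP1 (n = 10) and 638 ± 779.6 CPM at PP2 (n = 9), and it also counts among the fibroblast markers.

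Of 19 genes of collagen and matrix processing, 3 were called at PP1 and 2 at PP2, all higher. At PP1 these were FAM20A, a secretory pathway pseudokinase (1.37 ± 0.298, FDR 0.0104), CSTB, an inhibitor of cathepsins (1.02 ± 0.236, FDR 0.0142), and FKBP7, a prolyl isomerase of the endoplasmic reticulum (1.20 ± 0.306, FDR 0.0234). At PP2 they were FAM20A (1.31 ± 0.295, FDR 0.0139) and the collagen lysyl hydroxylase PLOD1 (1.16 ± 0.308, FDR 0.0290). The median log2 fold change of the list was 0.31 and 0.37.

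Of 13 genes of TGF-beta and BMP signalling and 14 growth factor receptors and adaptors, 0 were called at either time by edgeR, with 4 and 4 at an unadjusted p under 0.05 at PP1 and 4 and 3 at PP2. Over all genes 24.6% and 21.4% had such a p, so these counts were near the background. Of 11 genes of Wnt signalling tested at PP2, the corepressor gene TLE1 was called higher (1.08 ± 0.211, FDR 0.00599), and of 10 tested at PP1 none was, TLE1 being at 0.84 with an FDR of 0.0118, under the threshold on the fold change.

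Of 18 genes of focal adhesions and junctions, CADM1, a cell adhesion molecule (1.07 ± 0.250, FDR 0.0150), and GJA1, which encodes connexin 43 (1.33 ± 0.366, FDR 0.0351), were called higher at PP1. At PP2, ARVCF, a catenin (-1.23 ± 0.312, FDR 0.0238), and PKP2, the desmosomal plakophilin 2 (-1.50 ± 0.428, FDR 0.0401), were called lower. At the other time, ARVCF was at -1.15 (FDR 0.0700) and PKP2 at -1.04 (FDR 0.123) at PP1, and GJA1 at 1.78 (FDR 0.0675) and CADM1 at 0.37 (FDR 0.338) at PP2, with no call. With cow as a block, the FDR stayed under 0.05 for LUM at PP1 (0.0282), TNC at PP2 (0.0297), ARVCF (0.0395) and PKP2 (0.0252), and lay between 0.0519 and 0.341 for the other calls of these lists. When cows were left out in turn, LUM at both times and FAM20A at PP1 kept their calls in all fits, and each of the other calls was lost in at least 1 fit.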

How the data were processed

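RNA-seq read counts of 28 libraries were used as deposited. The authors filtered reads, aligned them with HISAT2 2.1.0 to bosTau7 and counted them per gene with HTSeq 0.6.1. These raw counts were neither normalized nor filtered. Strand setting, treatment of multi-mapping reads and annotation release are not given in the sources used here, so reads from overlapping genes cannot be told apart (in the RefSeq annotation of a later assembly, FSIP1 overlaps THBS1, and PAQR3 overlaps BMP2K). All 28 count columns were used.

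The 3 contrasts were fitted separately in edgeR 4.0.16 (R 4.3.3), by TMM scaling and the quasi-likelihood test. A gene entered a contrast if any of its libraries held 3 or more reads of it, with Benjamini-Hochberg adjustment over all genes. Standard errors follow from the fold change and the F statistic. Levels are TMM-scaled CPM, comparable within a gene only. For 21 named genes (called, at an unadjusted p under 0.05 in any comparison, or among the 8 highest means), exact two-sided permutation tests ran on log2 CPM (prior count 1) over all 92378 or 48620 splits. These 63 tests are unadjusted and treat libraries as independent, ignoring that most cows gave samples at both times. The scripts were tested on simulated counts.

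Same-numbered samples come from the same cow, with a mean correlation of deviations of 0.0987 (PP1 and PreP), 0.0165 (PP2 and PreP) and 0.102 (PP2 and PP1). Alternatives were other filters, scalings and tools (limma 3.58.1, DESeq2 1.42.0), cow as a block, and leaving out each cow. The fits with cow as a block used only cows with both samples, and so fewer libraries than the main fits. Values of 1 of the 40 genes are not reported here. The genes and lists were chosen with earlier results of these data known.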

Additional observations from a re-analysis of the deposited data

Results flagged for a closer look

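For each of the 21 named genes at each time point, the gap between the highest or lowest library and its neighbour was compared with the range of the group on the log2 CPM scale. In 9 of 63 groups it exceeded Dixon's 95% limit, where chance alone would give about 5% of groups, or 3.15. Cow B5169 accounted for 3 of them: THBS1 was 1176 CPM at PreP (next library 117 CPM) and 33.2 CPM at PP1 (next 182 CPM), and BMP2K was 5.36 CPM at PP1 (next 9.44 CPM). Cow B5102 had the lowest BMP1 at PreP, 58.6 CPM (next 99.0 CPM), and the highest PDGFRL at PP1, 492 CPM (next 179.6 CPM).

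Among the other libraries, ADAMDEC1 stood at 5.27 CPM in the PP2 library of cow B4987 (99 reads, next 0.439 CPM), ANGPTL4 at 514 CPM in the PP2 library of B5064 (next 319 CPM), and SERPINH1 at 1342 CPM in the PreP library of B5176 (next 702 CPM). CDHR1 was marked at PP1 through a single read in cow B5079 (0.0498 CPM).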

How the results depend on the processing

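Cow as a replicate block, the pairing by animal, left 0 of 40 genes called at PP1 (2 in the unpaired fit) and 1 at PP2 (3 in the unpaired fit), while over all genes the calls went from 744 to 47 and from 1015 to 401. The block fit used only cows with both samples, and the same cows without the block gave 411 and 972 calls over all genes. At PP1, limma voom with quality weights called 4 genes and the fit of 3 time points together called 1. Leaving out 1 cow gave between 1 (without B5090, B5102 or B5129) and 5 (without B5169) calls at PP1. At PP2 it gave between 0 (without B4886, B5064 or B5129) and 4 (without B5169), with 1 without B4987, B5102 or B5165. Between PP2 and PP1 each alternative gave 0. Other filters, scalings, the likelihood ratio test, DESeq2, the fit of cows with both samples, no threshold on the fold change and, at PP2, the removal of the library of B5090 gave counts within 1.5 times of those reported. The median log2 fold change ranged from 0.26 to 0.46 at PP1 and from 0.28 to 0.51 at PP2 over fits without 1 cow. Of 805 refits of 39 fold changes given for named genes, 16 changed sign, and the cause was not tested: FBN1 at PP2 became -0.11 with the block and -0.05 in cows with both samples, and lay between -0.06 and 0.30 over fits without 1 cow. PDGFRL at PP2 became -0.05 under voom and -0.03 with the block, and lay between -0.06 and 0.19 without 1 cow, and at PP1 between -0.09 and 0.45. Between PP2 and PP1, BMP1 (0.03) became -0.04 under total counts, -0.49 under voom and -0.05 with the block, and lay between -0.17 and 0.25 without 1 cow, and THBS3 lay between -0.47 and 0.29. THBS3 at PP2 was not called under total counts (1.28), voom (0.51) or 3 time points in 1 fit (1.42), and BMP1 at PP2 not under voom (0.81). DESeq2 added calls of BMPR1B at PP1 (2.11) and COL11A2 at PP2 (1.06), the likelihood ratio test that of WNT7A at PP1, and voom those of ANGPTL4 (1.26) and THBS1 (2.19) at PP1 and of THBS1 (2.54) at PP2. Low counts limited WNT7A, CDHR1, SERPINB5, SERPINB10 and ADAMDEC1.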

Other observations

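The PP2 library of cow B5090, the one with skeletal muscle transcripts, also held the highest PP2 value of 4 genes with few reads: COL11A2 at 6.00 CPM (next PP2 library 3.39 CPM), ADAMTS20 at 3.73 CPM (next 0.675 CPM), MMP17 at 1.87 CPM (next 1.01 CPM) and BMPR1B at 2.60 CPM (next 1.60 CPM). The PP1 library of cow B5102, which had the lowest adipocyte marker sum of PP1 (197 CPM) and the highest fibroblast marker sum (4892 CPM), held the highest PP1 value of BMP1 (532 CPM), THBS3 (417 CPM), SERPINH1 (1798 CPM), COL11A2 (3.92 CPM), FGF18 (11.5 CPM), PDGFRB (763 CPM), PDGFRL (492 CPM), BMPR1B (3.72 CPM), WNT16 (3.12 CPM), ADAMTS7, CDH10 and SERPINB8, and the lowest of PCDH7 (15.4 CPM) and, among others, of ADAM11, ADAM17, COL17A1, CTSL and MMP17. These genes were picked after their values were seen, and no test was run.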
